A study of Schizosaccharomyces pombe with 4 samples.

Results

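RRT15 (YLR162W-A) and YLR162W are neighbouring annotated open reading frames on chromosome XII of the budding yeast Saccharomyces cerevisiae. Here they name reads of libraries labelled as the fission yeast Schizosaccharomyces pombe, in records that lie on S. cerevisiae coordinates. The submitters' processing notes name an S. pombe build, and why the records carry S. cerevisiae coordinates could not be settled, so each value holds for the records as deposited. Records were taken where the feature name was RRT15 or YLR162W and the interval lay between positions 489700 and 490600 of chromosome XII, in the coordinates of the files. The sources used here do not give their S. cerevisiae genome release. That rule gave 2 features of the 7905 named in the 4 libraries, with 47758 reads in all. All of these reads ran opposite to the frames, and those on YLR162W had close counterparts on the 25S rRNA genes at fixed distances along the chromosome. YLR162W reads matched the 3′-most stretch of the 25S reads and were spread evenly over 3 places. At the same distances RRT15 falls on a stretch farther inside 25S, where few of its reads had the same shape and where the Seb1-HTP and control libraries held different parts.

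The 4 libraries come from CRAC, in which RNA is cross-linked to protein by UV light in living cells, a tagged protein is purified, and the RNA that stays attached is copied and sequenced. In 2 libraries the strain carried Seb1-HTP::KAN, a tagged Seb1, in the background of mating type h+ with ade6-M216, leu1-32, ura4-delta_18 and his3delta_1. The other 2 came from the untagged parental strain of that same background. Both grew in YES medium at 30 °C to exponential phase and received 3 min of UV. The labels do not give the number of clones behind each strain, and the design text calls the 2 libraries of a group biological replicates. Seb1 is an RNA-binding protein related to Nrd1 of S. cerevisiae and is known for 3′ end formation by RNA polymerase II. Because the records carry S. cerevisiae names, the tagged gene could not be checked in these files.

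Ribosomal RNA is transcribed by RNA polymerase I from tandem repeats as a 35S precursor, which is cut into 18S, 5.8S and 25S rRNA. The S. cerevisiae reference holds 2 copies of the repeat on chromosome XII, called copy 1 and copy 2 here, and the 25S genes RDN25-1 and RDN25-2 lie on the minus strand. Several small open reading frames are annotated within or near the repeats on the opposite strand. RRT15 is named after a screen for regulators of rDNA transcription, and YLR162W encodes a putative protein whose function is not known. In CRAC cDNA, deletions and substitutions can arise at cross-linked bases, and substitutions also arise wherever the RNA differs from the sequence on which it was placed.

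The S. pombe reference annotates 3 copies of the large-subunit rRNA gene, each 3485 bases long and identical in sequence. The last 100 bases of the annotated gene are shown because YLR162W reads matched the 3′-most stretch of the reads on this rRNA. They are from RefSeq, build ASM294v3, chromosome III, 6057 to 6156, minus strand, locus SPRRNA.47, written 5′ to 3′ as DNA with no base marked.
S. pombe large-subunit rRNA, 3′ end: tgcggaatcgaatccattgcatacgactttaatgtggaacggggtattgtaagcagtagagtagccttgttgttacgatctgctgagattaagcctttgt
The files hold positions and kinds of differences but no read bases, and the S. cerevisiae sequence was not used here. No base of this run was therefore assigned to a position on chromosome XII.

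Depth differed widely. Reads naming at least 1 feature, the total against which shares and RPM (reads per 1000000 named reads) are set, were 268030 and 231656 in Seb1-HTP 1 and 2 and 4579 and 45339 in untagged control 1 and 2. A count of 3 reads, used as the floor for a count of 0, equals 11.2 and 13 RPM in Seb1-HTP libraries and 655 and 66.2 RPM in control libraries. Intervals in brackets are 95% Wilson intervals. Intervals and floors cover counting error only, and whether identical fragments are separate molecules was not tested. Shares are relative to each library's own named reads, so more RNA of the pair and less of other RNA cannot be told apart.

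RRT15 and YLR162W were the features with the highest and second-highest RPM in Seb1-HTP among the 559 features tested, those with at least 10 reads in records naming them alone. Features named together with others were left out of this ranking. Among these, YLR154W-E took 12.3% and 10.4% of named reads in Seb1-HTP libraries. RDN25-1 and RDN25-2 held 121129 and 121229 reads over the 4 libraries. RRT15 had 19634 and 6485 reads in Seb1-HTP 1 and 2, against 25 and 1027 reads in control 1 and 2. As shares of named reads these were 7.33% (7.23 to 7.42) and 2.80% (2.73 to 2.87) in Seb1-HTP libraries, against 0.546% (0.370 to 0.805) and 2.27% (2.13 to 2.41) in control libraries. The groups did not overlap, but the lower Seb1-HTP value was close to the higher control value, and each group spread by several fold within itself. Set against totals that leave out rRNA and tRNA reads, RRT15 was at 44.2% and 12.6% in Seb1-HTP libraries, against 5.57% and 49.4% in control libraries, and the groups overlapped. These totals still hold the pair's own reads, at 70.6% and 29.1% of them in Seb1-HTP libraries and 18.7% and 68.5% in control libraries. They are thus partly set by the pair itself.

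YLR162W had 11691 and 8440 reads in Seb1-HTP libraries, against 59 and 397 in control libraries. Its shares were 4.36% (4.29 to 4.44) and 3.64% (3.57 to 3.72) in Seb1-HTP libraries, against 1.29% (1.00 to 1.66) and 0.876% (0.794 to 0.966) in control libraries. These libraries were tighter within each group than for RRT15, and the groups did not overlap. With rRNA and tRNA reads left out of the totals they did overlap, at 26.3% and 16.4% in Seb1-HTP libraries, against 13.1% and 19.1% in control libraries. The mean share of RRT15 was 5.06 ± 3.20% in Seb1-HTP libraries, against 1.41 ± 1.22% in control libraries (SD, n = 2 each). For YLR162W it was 4.0 ± 0.509% in Seb1-HTP libraries, against 1.08 ± 0.293% in control libraries (SD, n = 2 each). Of all 559 features tested, 62.4% likewise had both Seb1-HTP libraries above both controls in RPM. Many of them passed the filter on reads with none in either control, so this share depends on the depth of the libraries.

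Neither member passed the test across features. The log2 fold change of Seb1-HTP over control was 1.85 with a standard error of 1.85 for RRT15 and 1.89 with 1.91 for YLR162W (adjusted p = 0.522 for each, edgeR quasi-likelihood test with Benjamini-Hochberg adjustment). With rRNA and tRNA reads left out of the totals these were 0.05 for RRT15 (adjusted p = 0.985) and 0.41 for YLR162W (adjusted p = 0.879), and over all alternatives the adjusted p ranged from 0.0814 to 0.985 for RRT15 and from 0.118 to 0.879 for YLR162W. The totals without rRNA and tRNA still hold the pair's own reads. The median log2 fold change over all features was 4.94. Many features had no reads in either of the shallower control libraries, so this median depends on depth and on the filter on reads. That fit called 0 of 559 features (0%), with 4 at an unadjusted p under 0.05, and DESeq2 called 1 (0.179%). Without Seb1-HTP 1 the edgeR fit called 93 features higher of the 438 then tested, the members not among them. The shares differed by 3.66 percentage points for RRT15 and 2.92 for YLR162W, with an exact two-sided permutation p = 0.333 for each, the smallest that 2 against 2 libraries can give. Without Seb1-HTP 1 the RRT15 difference was 1.39 percentage points, and without Seb1-HTP 2 it was 5.92. Counted as distinct fragments, each start, end and strand once, RRT15 made up 2.43% and 1.23% of Seb1-HTP fragments against 1.45% and 2.40% of control fragments, so the groups overlapped and the difference in means turned to -0.0957 percentage points. YLR162W made up 1.84% and 0.963% in Seb1-HTP libraries, against 1.76% and 1.51% in control libraries, which overlapped as well. Counting each fragment once removes more reads where fragments repeat. RRT15 had 51.4 and 13.9 reads per distinct fragment in Seb1-HTP libraries, against 1.79 and 11.5 in control libraries. For YLR162W these were 40.3 and 23.1, against 3.47 and 7.09.

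**Figure D1:**
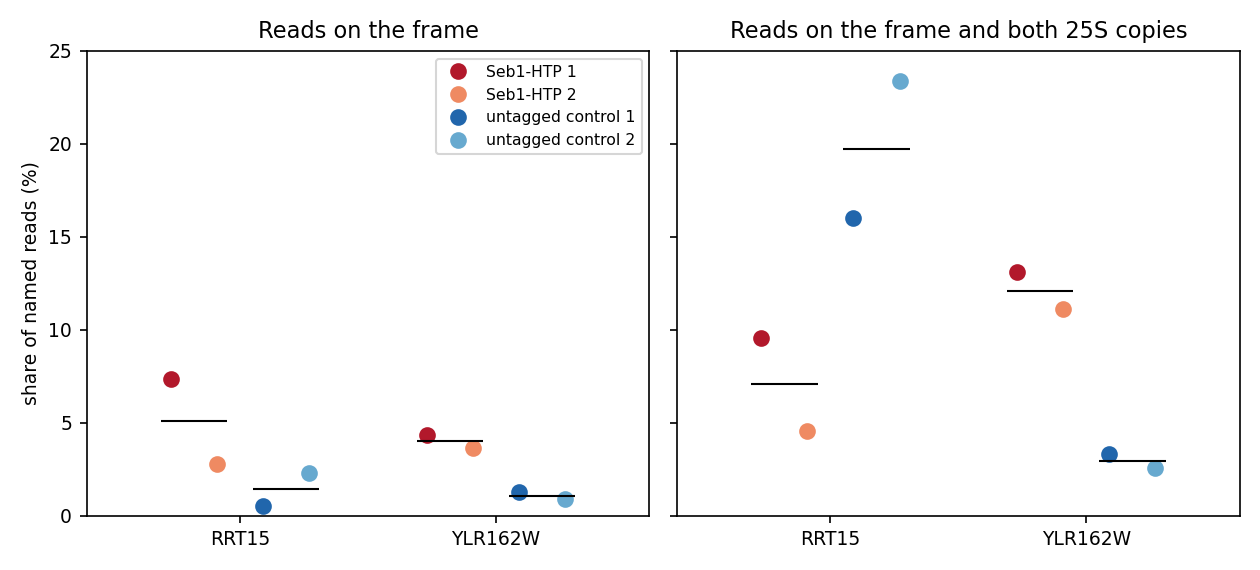
Share of named reads in percent (vertical axes, from 0) for RRT15 and YLR162W. Points are the 4 libraries, black bars the group means of 2 libraries; the left panel counts reads on the frame, the right panel adds the matching places in both 25S copies. On the frame RRT15 was at 7.33% and 2.80% in Seb1-HTP libraries and 0.546% and 2.27% in control libraries, whereas over the 3 places it was at 9.54% and 4.57% in Seb1-HTP libraries and 16.0% and 23.4% in control libraries. The 3 places include 25S fragments that ran past the upper end of the frame's reads.

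All 47758 reads of the pair lay on the minus strand, opposite to the frames and the same as RDN25, and 0 lay on the plus strand. For the shallowest value, 25 of 25 RRT15 reads in control 1, the lower bound of that share was 86.7%. Not a single read named both members, whose stretches were 489748 to 489856 (YLR162W) and 490302 to 490545 (RRT15). Between them, from 489857 to 490301, lay few reads, and those name no feature.

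Counted by reads, fragments on the pair were longer with Seb1-HTP than in control libraries. On RRT15 they averaged 67.4 and 62.2 nt in Seb1-HTP libraries, against 49 and 48.5 nt in control libraries. On YLR162W they averaged 64.2 and 60.9 nt in Seb1-HTP libraries, against 56.4 and 55.8 nt in control libraries. The groups did not overlap for either member (exact two-sided permutation p = 0.333 for each, n = 2 against 2). Of the 14 features with at least 10 reads in every library, counted under any name, members included and most of them overlapping rDNA features, 42.9% likewise had both Seb1-HTP libraries above both controls in mean length. From the 10th to the 90th percentile RRT15 fragments spanned 50 to 101 nt and 40 to 101 nt in Seb1-HTP libraries, against 46 to 50 nt and 44 to 50 nt in control libraries. The longest reached 171 and 172 nt in Seb1-HTP libraries and 67 and 61 nt in control libraries. As distinct fragments the RRT15 means were 54.3 and 54.2 nt in Seb1-HTP libraries, against 48.4 and 44.1 nt in control libraries. For YLR162W they were 50 and 48 nt in Seb1-HTP libraries, against 48.5 and 46.2 nt in control libraries, so the groups overlapped.

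YLR162W fragments shared their ends across groups. Position 489753 was the RNA 3′ end of 63.1% (62.2 to 64.0) and 56.0% (55.0 to 57.1) of Seb1-HTP reads, against 37.3% (26.1 to 50.0) and 47.6% (42.7 to 52.5) of control reads. Position 489834 was the RNA 5′ end of 42.4% and 48.0% of Seb1-HTP reads, against 27.1% and 27.5% of control reads. The same 2 ends were thus frequent in all 4 libraries, more so with Seb1-HTP. The interval 489753 to 489834 was the most frequent fragment in both Seb1-HTP libraries, with 24.8% and 26.2% of reads, and in control 2, with 17.4%; in control 1 it was 489767 to 489810. Coverage peaked at 489801 in both Seb1-HTP libraries, and at 489797 and 489799 in controls 1 and 2.

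RRT15 fragments had different ends in the 2 groups. Position 490473 was the RNA 5′ end of 59.8% (59.1 to 60.5) and 42.2% (41.0 to 43.4) of Seb1-HTP reads, against 4% (0.710 to 19.5) and 0.779% (0.395 to 1.53) of control reads. Position 490423 was the RNA 3′ end of 25.6% and 15.6% of Seb1-HTP reads, against 0 of 25 and 0.779% of control reads. The most frequent fragment was 490423 to 490473 in both Seb1-HTP libraries, against 490480 to 490529 and 490461 to 490510 in control 1 and 2. Coverage peaked at 490455 and 490458 in Seb1-HTP libraries and at 490496 in both controls. These limits and peaks were picked after the values were seen.

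**Figure D2:**
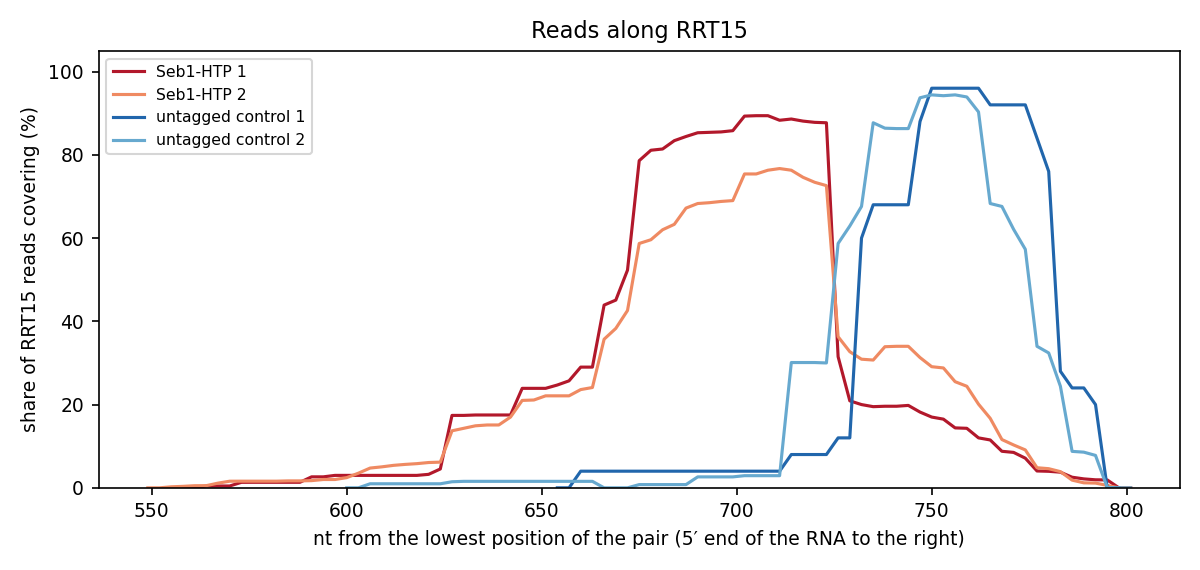
Share of each library's RRT15 reads that cover a position (vertical axis, percent) along the member (horizontal axis, nt from the lowest position of the pair, with the RNA's 5′ end to the right). Lines are the 4 libraries. Both Seb1-HTP lines drop steeply about where both control lines climb, and control 1 rests on 25 reads.

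Split at 490474, 1 nt past the frequent 5′ end, 75.0% (74.4 to 75.6) and 61.4% (60.2 to 62.6) of Seb1-HTP reads ended at or below it, against 4% (0.710 to 19.5) and 2.43% (1.65 to 3.57) of control reads. As distinct fragments these shares were 44.5% and 50.6% in Seb1-HTP libraries, against 7.14% and 6.74% in control libraries. Reads that started above 490463 were 6.80% and 13% in Seb1-HTP libraries, against 92% and 68.4% in control libraries. By reads, the lower side of RRT15 thus held the larger part in both Seb1-HTP libraries and the upper side in both controls. On the minus strand the lower side is the 3′ side of the RNA.

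To find which rRNA stretch the reads match, each distinct fragment of the pair was compared with all RDN25 fragments of the same library, asking for the same strand, length and relative positions of substitutions and deletions. Of 2784 distances along the chromosome with any match, 2 had by far the most. A distance of 37968 nt matched 2452 fragment shapes over the 4 libraries and leads into RDN25-1, and 28831 nt matched 2423 and leads into RDN25-2. The next best distance matched 37. Most of these shapes were of YLR162W, with 1334 and 905 at 37968 nt in Seb1-HTP libraries and 10 and 59 in control libraries. RRT15 gave 84 of 8689 and 44 of 3485 in Seb1-HTP libraries and 1 of 17 and 15 of 422 in control libraries. The 2 leading distances differ by 9137 nt, the length of the rDNA repeat in these coordinates.

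At these distances YLR162W lies over 451780 to 451888 in copy 1 and 460917 to 461025 in copy 2. The lowest position of any record naming RDN25-1 was also 451780 in the 4 libraries, so the stretch is the 3′-most one of the reads on 25S rRNA. RRT15 lies over 452334 to 452577 in copy 1 and 461471 to 461714 in copy 2. The lowest fragment end among RRT15 records, 490406, and that among records of the frame YLR154W-A inside copy 1, 452438, are 37968 nt apart, which is the distance itself. By position, YLR154W-A is the frame at that distance from RRT15.

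YLR162W reads had close copies in 25S. A 25S fragment of the same start, length and differences was found for 84.3% (83.6 to 84.9) and 81.0% (80.1 to 81.8) of Seb1-HTP reads, against 49.2% (36.8 to 61.6) and 61.7% (56.8 to 66.4) of control reads. For RRT15 these shares were 14.8% (14.3 to 15.3) and 7.62% (7 to 8.29) in Seb1-HTP libraries, against 8.00% (2.22 to 25) and 9.35% (7.72 to 11.3) in control libraries. With the differences ignored, RRT15 matched for 89.9% and 50.2% in Seb1-HTP libraries, against 20% and 68.6% in control libraries, while YLR162W matched for 99.3% and 98.7% in Seb1-HTP libraries, against 88.1% and 87.4% in control libraries. By start and length alone the fixed distances matched RRT15 best only in Seb1-HTP 1. There 37968 nt matched 69 distinct fragments and 28831 nt matched 59, against at most 55 at any other distance. In Seb1-HTP 2 the distance of 37968 nt matched 53 distinct fragments, against 58 at 37464 nt. In control 1 it matched 3, against 10 at 37940 nt, and in control 2 it matched 19, against 36 at 37935 nt. The place of RRT15 in 25S thus rests on the distances found mainly with YLR162W reads and on the smaller number of RRT15 shapes with the same differences. A fragment is more likely to find its like in a deeper library, and as distinct fragments the YLR162W shares overlapped, at 41.7% and 38.6% in Seb1-HTP libraries and 41.2% and 53.6% in control libraries. The 50-nt windows of 25S that held most of these matches began at 451800, 451850 and 452450 in copy 1. Window 451800 held 10819 and 8074 reads in Seb1-HTP libraries, against 52 and 341 in control libraries. In copy 2 they began at 460950, 460900 and 461550. Window 460950 held 9741 and 7314 reads in Seb1-HTP libraries, against 38 and 288 in control libraries. Window 452450 held 141 and 104 reads in Seb1-HTP libraries, against 0 and 0 in control libraries. None of these 6 windows passed the test over all windows (adjusted p from 0.0612 to 0.453, edgeR), and the other 5 had log2 fold changes from 1.52 to 2.62.

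The reads of the YLR162W stretch were spread evenly over the frame and both 25S copies. The frame held 33.3% (32.8 to 33.8) and 33.0% (32.4 to 33.5) of the Seb1-HTP reads of the 3 places, against 39.1% (31.7 to 47.0) and 33.8% (31.2 to 36.6) of the control reads. In Seb1-HTP 1 the counts were 11691 on the frame, 11716 in copy 1 and 11683 in copy 2. The unnamed stretch between the members was split alike, with 33.0% and 32.3% on the frame side in Seb1-HTP libraries, against 34.7% and 35.6% in control libraries. Over the 3 places the YLR162W stretch took 13.1% and 11.1% of named reads in Seb1-HTP libraries, against 3.30% and 2.59% in control libraries. That is 4.11 times the control mean, and the groups did not overlap (exact two-sided permutation p = 0.333, n = 2 against 2). Of the 559 features tested, counted without such sums, 62.4% likewise had both Seb1-HTP libraries above both controls in RPM. In the edgeR fit over features with the reads of the 3 places added, the log2 fold change of YLR162W was 2.04 with a standard error of 1.06 (adjusted p = 0.526).

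RRT15 reads were not spread evenly. The frame held 76.9% (76.4 to 77.4) and 61.6% (60.7 to 62.6) of the Seb1-HTP reads of the 3 places, against 4.23% (3.00 to 5.94) and 9.68% (9.14 to 10.3) of the control reads. In Seb1-HTP 1 the counts were 19664 on the frame, 2962 in copy 1 and 2950 in copy 2. Control 2 held 1029 reads on the frame, 4744 in copy 1 and 4854 in copy 2. As distinct fragments the frame's share was 52.7% and 50.6% in Seb1-HTP libraries, against 13.8% and 17.7% in control libraries. Over the 3 places the RRT15 stretch took 9.54% and 4.57% of named reads in Seb1-HTP libraries, against 16.0% and 23.4% in control libraries, 0.358 times the control mean. The direction is thus the opposite of that on the frame alone, and the log2 fold change turned to -1.48 with a standard error of 0.90 (adjusted p = 0.526, edgeR).

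**Figure D3:**
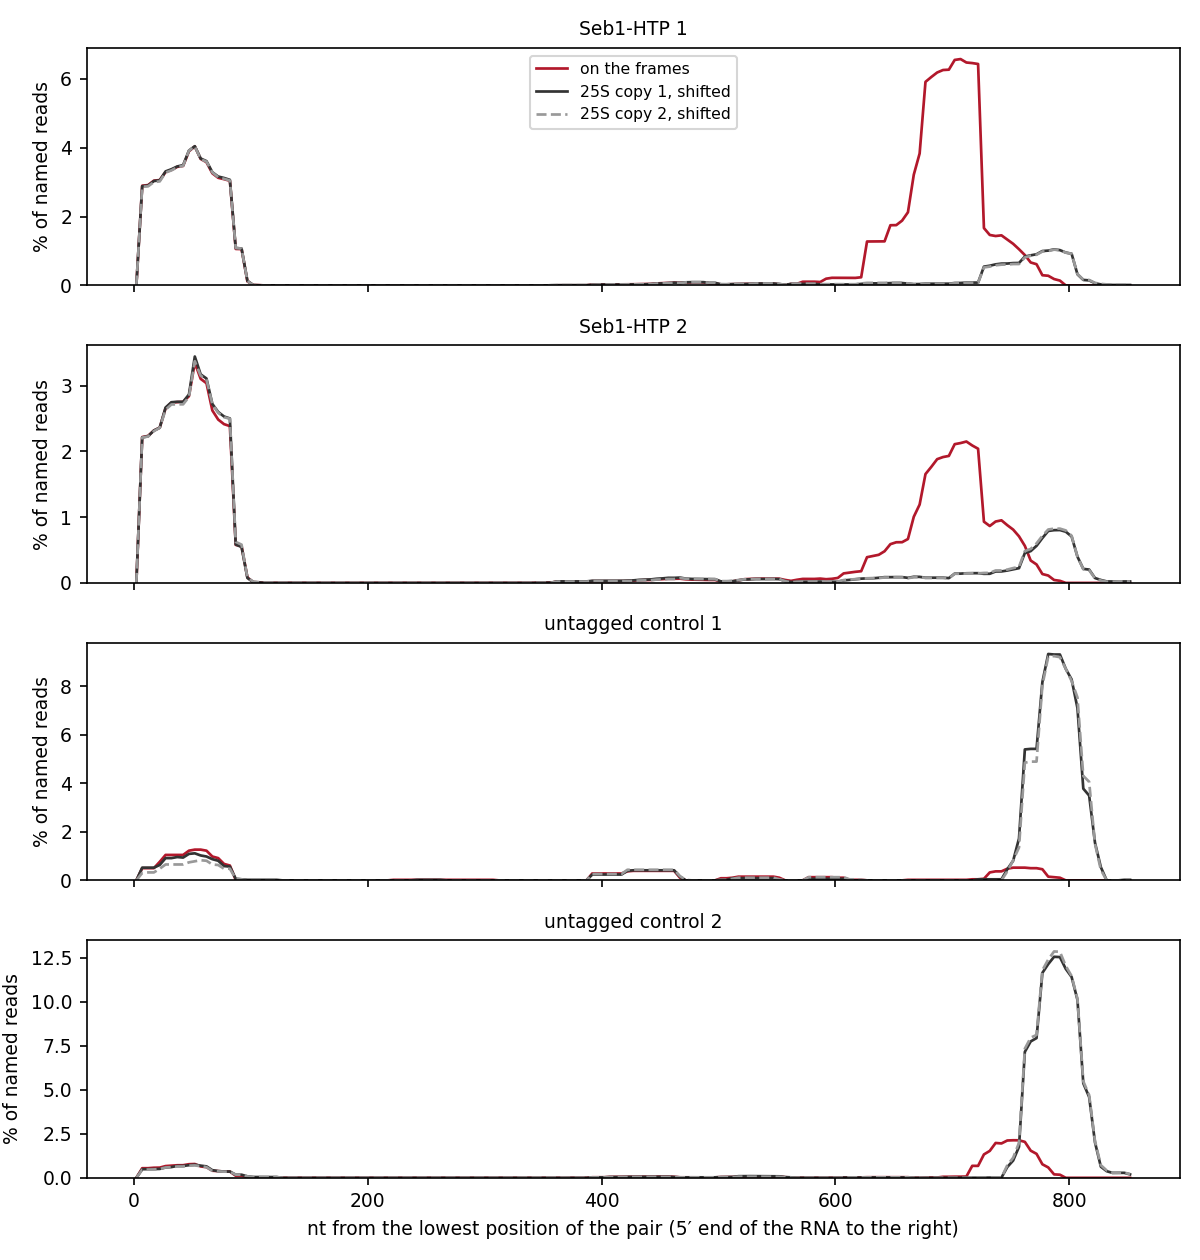
Reads covering each position (vertical axes, percent of named reads, each panel with its own scale) along the pair (horizontal axis, nt from the lowest position of the pair, with the RNA's 5′ end to the right). Panels are the 4 libraries; the lines are the frames and, moved by the fixed distances, the 25S copies. The 3 lines nearly coincide over YLR162W at the left in both Seb1-HTP libraries. Over RRT15 at the right the highest point is on the frame in Seb1-HTP libraries and in 25S in control libraries. The lead changes along RRT15 in both groups. At its upper end, at 490543, the 25S copies lead in all 4 libraries. At 490496 the frame leads in control 2, with 973 reads against 417 and 491 in the copies.

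Recorded substitutions separate the frame from 25S at 3 positions of RRT15. These are positions covered by at least 30 Seb1-HTP reads at each place, where the substituted share differed from both copies by over 25 percentage points in both Seb1-HTP libraries, a rule set after the data were seen. At 490487, 0.520% and 0.317% of Seb1-HTP frame reads were substituted, and in copy 1, at 452519, it was 97.6% and 63.6%. At 490443, 3.00% and 1.91% of Seb1-HTP frame reads were substituted, against 55.1% and 81.5% in copy 1. At 490543 the order was the other way round. There 98.7% and 100% of Seb1-HTP frame reads were substituted, and 1.38% and 0.915% in copy 1. Reads of the RRT15 stretch thus carried fewer substitutions on the frame than in 25S at the first 2 positions, and more at the last one. By this rule, which uses Seb1-HTP reads alone, the YLR162W stretch holds no such position.

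Where a fragment was placed followed which of these positions it covered. The positions were found from the same reads, so this is a description with no test. Of Seb1-HTP fragments covering 490443 or 490487 but not 490543, 98.7% (98.5 to 98.8) and 98.9% (98.6 to 99.1) of reads were on the frame, against 90.0% (69.9 to 97.2) of 20 and 98.9% (98.0 to 99.4) of 924 in control libraries. Of those covering 490543 alone, 0 of 1921 and 0 of 2586 Seb1-HTP reads were on the frame, against 0 of 679 and 1 of 9389 in control libraries. The upper bounds of the counts of 0 were 0.2% and 0.148% in Seb1-HTP libraries and 0.563% in control 1. Fragments covering both kinds were on the frame for 10.5% and 4.44% of Seb1-HTP reads, and the controls held none. Fragments covering none were on the frame for 32.7% (29.5 to 35.9) and 34.0% (30.9 to 37.1) of Seb1-HTP reads, against 38.2% (23.9 to 55.0) and 36.3% (31.2 to 41.8) of control reads. Within each kind of fragment, the Seb1-HTP and control shares thus lay close together. The groups differed in how many fragments of each kind they held. Fragments covering 490543 alone were 1921 of the 25576 reads over the 3 places in Seb1-HTP 1 and 2586 of 10597 in Seb1-HTP 2, against 679 of 733 in control 1 and 9389 of 10627 in control 2.

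**Figure D4:**
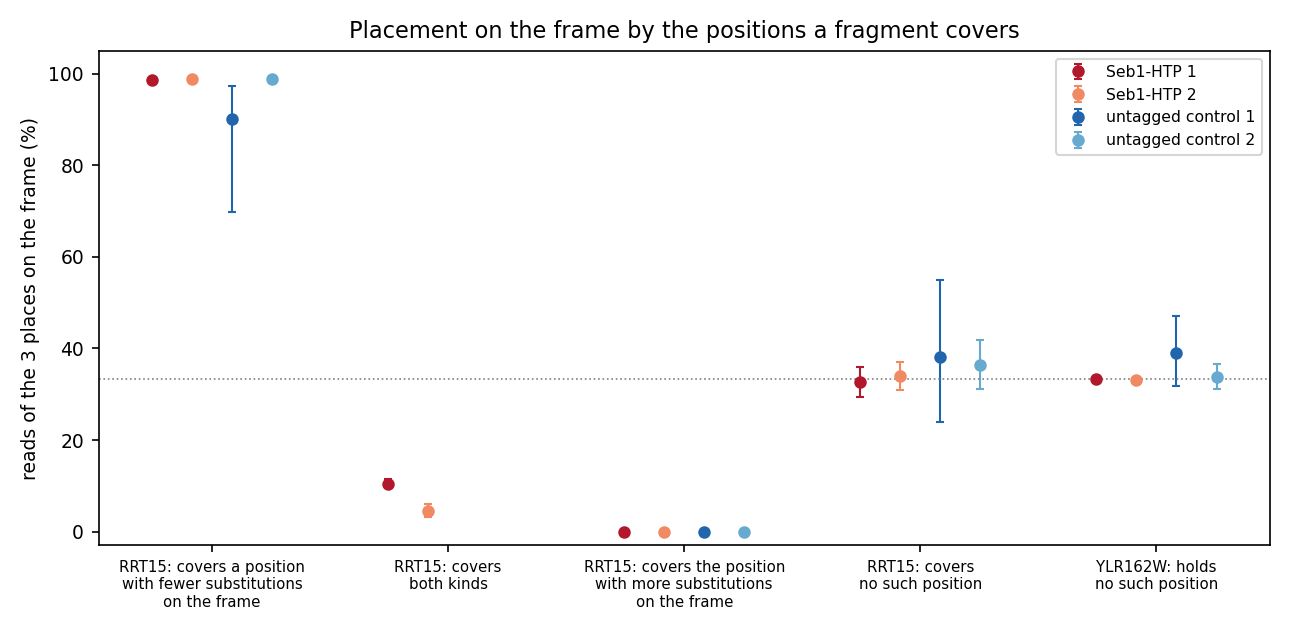
Share of the reads at the 3 places that lay on the frame (vertical axis, percent) by the separating positions a fragment covers (horizontal axis). Points are the 4 libraries with 95% Wilson intervals, and the dotted line marks an even split over 3 places. Points of Seb1-HTP and the controls lie near 98.9%, near 0 or near the dotted line by kind of fragment; the exceptions are control 1 at 90.0% of 20 reads and at 38.2% and 39.1%, and fragments covering both kinds at 10.5% and 4.44%, which the controls lack.

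Reads were also tested in 50-nt windows by fragment midpoint. Of 216 windows over the rDNA copies and the pair, edgeR called 29 higher (13.4%) and 6 lower (2.78%) with Seb1-HTP, and the median log2 fold change was 1.95. With 1 library left out, 5 to 91 windows were called higher and 5 to 13 lower, the fewest higher without Seb1-HTP 1 and the most without control 1. Of the 7 windows that overlap the members, 1 was called higher and 0 lower, a share near that over all windows. That window, which starts at 490400, was singled out after its values were seen. It held 14290 and 3459 reads in Seb1-HTP libraries, against 1 and 8 in control libraries. Its log2 fold change was 7.49 with a standard error of 1.21 (adjusted p = 0.0045, edgeR quasi-likelihood test). Left out in turn, Seb1-HTP 1 gave 6.27 (adjusted p = 0.24), and the other 3 libraries gave 7.28 to 8.11, each still called. With distinct fragments it was 3.84 (adjusted p = 0.0736, edgeR). Over all alternatives its adjusted p ranged from 3.78e-07 to 0.24.

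Summed over the frame and both 25S copies, windows at the lower and upper side of the RRT15 stretch differed in opposite directions. This sum was not recomputed with a library left out or with distinct fragments. Window 490400 then held 14505 and 3567 reads in Seb1-HTP libraries, against 1 and 8 in control libraries (log2 fold change 7.52 with a standard error of 1.21, adjusted p = 0.00895, edgeR). Window 490500 held 5802 and 3648 reads in Seb1-HTP libraries, against 821 and 11121 in control libraries, although these have fewer reads in all. Its log2 fold change was -3.51 with a standard error of 0.55 (adjusted p = 0.00895, edgeR). Most of these reads lay in the 25S copies, since the frame held 568 and 321 of them in Seb1-HTP libraries, against 21 and 356 in control libraries. The lower value is thus mainly one of 25S reads. On the frame alone window 490500 was at -1.84 with a standard error of 1.08 (adjusted p = 0.264, edgeR). In this fit 28 of 193 windows were called higher (14.5%) and 6 lower (3.11%). Of the YLR162W windows, 489750 was at 1.89 (adjusted p = 0.0684) and 489800 at 2.55 (adjusted p = 0.056), so neither passed the edgeR test.

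**Figure D5:**
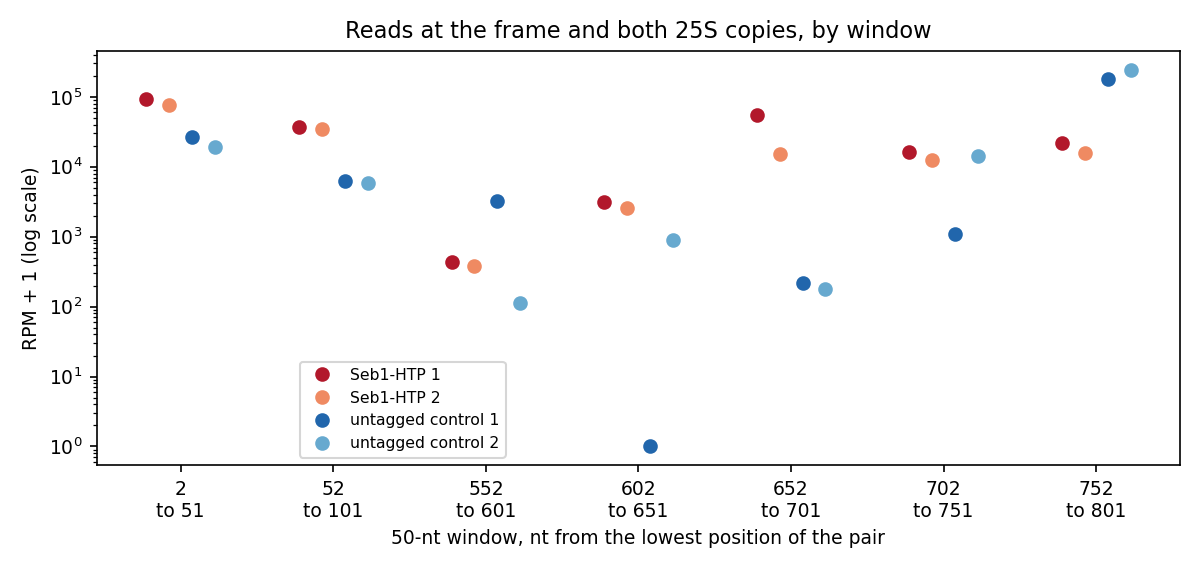
RPM + 1 (vertical axis, log scale) at the frame and both 25S copies, in the 50-nt windows that overlap YLR162W or RRT15 (horizontal axis, nt from the lowest position of the pair). Points are the 4 libraries, and the point at 1 is a count of 0 in control 1. The fifth window from the left, which starts at 490400, has both Seb1-HTP points far above both control points, and the last window has them below.

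Substitutions were frequent on both members in all libraries. RRT15 reads carried 4.03 and 3.98 substitutions each in Seb1-HTP libraries, against 4.80 and 4.45 in control libraries. YLR162W reads carried 5.30 and 4.71 each in Seb1-HTP libraries, against 3.42 and 3.98 in control libraries. Neither pair of groups overlapped, and they differed in opposite directions (exact two-sided permutation p = 0.333 for each, n = 2 against 2). Of the same 14 features, 64.3% had both Seb1-HTP libraries above both controls, as YLR162W had, and 7.14% had them below, which is RRT15 alone. Fragment length differed between the groups, and on RRT15 so did the part covered. Per 100 nt, RRT15 reads carried 5.99 and 6.39 substitutions in Seb1-HTP libraries, against 9.80 and 9.18 in control libraries. YLR162W reads carried 8.25 and 7.73, against 6.07 and 7.13. Reads with no recorded difference were 0.173% and 0.848% on RRT15 in Seb1-HTP libraries, against 0 of 25 and 0 of 1027 in control libraries. On YLR162W they were 1.58% and 2.19% in Seb1-HTP libraries, against 11.9% and 7.30% in control libraries.

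Many YLR162W substitutions were fixed and common to the frame and 25S. At 489829, 99.7% and 99.7% of Seb1-HTP frame reads were substituted, against 87.1% of 31 and 100% of 163 control reads, and in the 25S copies the Seb1-HTP values were 99.7% and 98.8%. At 489761 it was 99.0% and 96.1% in Seb1-HTP libraries, against 87.0% of 23 and 86.7% of 248 in control libraries. Positions 489753, 489763, 489764 and 489830 were likewise substituted in 94.1% to 99.2% of Seb1-HTP frame reads. Other positions differed between the frame and 25S in control 2. At 489835 it had 100% of 54 frame reads substituted, against 67.3% of 162 in 25S. At 489836 it was 96.3% of 54 against 67.9% of 162, and at 489846 it was 100% of 22 against 45.3% of 75. All these positions were chosen after the values were seen.

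Deletions were more frequent on RRT15 in both Seb1-HTP libraries than in both controls. They averaged 0.808 and 0.624 per RRT15 read in Seb1-HTP libraries, against 0 and 0.0214 in control libraries. At least 1 deletion was in 41.7% and 33.1% of RRT15 reads in Seb1-HTP libraries, against 0 of 25 and 2.04% in control libraries. On YLR162W it was 9.74% and 14% in Seb1-HTP libraries, against 6.78% and 7.30% in control libraries. In each case the groups did not overlap (exact two-sided permutation p = 0.333 for each, n = 2 against 2). Of the same 14 features, 42.9% had both Seb1-HTP libraries above both controls in deletions per read, and 28.6% had them below.

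The RRT15 deletions lay at adjacent positions near the Seb1-HTP peak. At 490457, 37.9% and 30.8% of Seb1-HTP frame reads had a deletion and 61.2% and 65.5% a substitution, so that most reads carried some difference. The controls covered that position with 1 and 30 reads, all substituted and none deleted. At 490458, 35.5% and 25.9% of Seb1-HTP reads had a deletion, against 0 of 1 and 0 of 30 control reads. The lower deletion share of the controls was therefore measured on few reads at these positions. In the 25S copies, the Seb1-HTP reads covering the counterpart of 490457 had a deletion in 30.2% of 437 and 17.3% of 648. At 490461, 3.30% and 4.79% of Seb1-HTP reads were substituted, against 50.0% of 2 and 88.0% of 309 in control libraries; 490461 is also the 3′ end of the most frequent fragment of control 2. At 490465 substitutions were common to all, with 93.9% and 87.9% in Seb1-HTP libraries, against 100% of 2 and 100% of 309 in control libraries.

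Among the tested features, those with the most similar RPM over the 4 libraries, by Euclidean distance of log2(RPM + 1), were the members themselves, at 2.03 from each other. Next came XUT_12F-188, an unstable non-coding transcript, at 10.4 from RRT15 and 9.36 from YLR162W, with 72 and 314 reads in Seb1-HTP against 74 and 39 in control libraries. PCL5, encoding a cyclin of the Pho85 kinase, followed at 13.4 and 12.7, with 46 and 283 reads in Seb1-HTP against 2 and 3 in control libraries. The pair thus lay closer to each other than to any other tested feature. Neither XUT_12F-188 nor PCL5 passed the edgeR test (log2 fold changes -3.38 and 1.66, adjusted p = 0.522 and 0.652).

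Among 34 frames and features annotated in or beside the rDNA and its 5S copies, members included, 19 had reads and 4 could be tested because a record named them alone. None of the 4 passed the edgeR test, and their median log2 fold change was 1.58, against 4.94 over all features. The latter is no neutral background, since many features had no reads in either control. The 5S rRNA genes RDN5-1 and RDN5-6 were the other 2, with 6 and 170 reads on RDN5-1 in Seb1-HTP against 1 and 5 in control libraries, and 5 and 145 on RDN5-6 against 2 and 8. The other 15 with reads were always named together with other features or held 1 read. YLR154W-A, the frame at the fixed distance from RRT15, took 1.16% and 0.951% of named reads in Seb1-HTP libraries, against 9.39% and 12.7% in control libraries, where the order of the groups was opposite to that of RRT15 itself. YLR154W-E took 12.3% and 10.4% in Seb1-HTP libraries, against 2.29% and 2.11% in control libraries. TAR1, a frame antisense to 25S that encodes a mitochondrial protein, took 2% and 1.03% in Seb1-HTP libraries, against 1.16% and 0.0882% in control libraries, which overlapped. YLR154W-F took 2.07% and 0.954%, against 0 of 4579 reads and 0.0199%, and YLR154W-B took 0.381% and 0.272%, against 0.109% and 0.119%. Reads on YLR154C-G, YLR154C-H, YLR156C-A, YLR157C-C, YLR159C-A and RDN5-2 to RDN5-5 stayed at or below 0.0449% in every library. ASP3-2, a cell-wall asparaginase gene, had 1 read.

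Genes that flank the pair had hardly any reads. Of 6 such genes, 4 had reads and 2 could be tested. PUS5, encoding a pseudouridine synthase, had 4 and 17 reads in Seb1-HTP libraries, against 0 and 0 in control libraries, and PWP1, linked to rRNA processing, had 3 and 26, against 0 and 0. Neither was called by edgeR (adjusted p = 0.522 for each). SEC10, encoding an exocyst subunit, had 1 and 1 reads in Seb1-HTP libraries and BDF1, encoding a bromodomain protein, had 0 and 6, with 0 in both controls for each. The floor of 3 reads leaves control levels up to 655 RPM in control 1 undetected.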

How the data were processed

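The deposited files hold read counts per interval, which the authors wrote with Counters 1.4.2, per the file headers. The submitters' processing notes name Novoalign 2.0.4 and, as genome build, ASM294v2 of S. pombe. The records nevertheless lie on S. cerevisiae chromosomes with S. cerevisiae names, whose release the sources used here do not give. Each record gives an interval, its reads, strand, feature names and the positions of substitutions and deletions. Records naming no feature (2.12% and 4.90% of all Seb1-HTP reads, 1.61% and 0.334% of control reads) stayed out of totals and tests.

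The members and the lists of rDNA features and flanking genes were chosen with earlier results of these data known. edgeR 4.0.16 (R 4.3.3) tested counts with named reads as library totals, for features or 50-nt windows with at least 10 reads over the 4 libraries, with Benjamini-Hochberg adjustment at 0.05; DESeq2 1.42.0 was an alternative. Per-library values were compared by exact permutation tests (Python 3.11.15, scipy 1.17.1). The fits were also run on simulated counts, with changes larger than those of the members. That run therefore does not show whether changes of the members' size would be called. The sums over 3 places, the separating positions, the placement by kind of fragment and the sides of RRT15 were chosen after seeing the data. Features were named by rule: the members, the 3 features nearest each in log2(RPM + 1), the 3 windows of each rDNA copy with most matched reads, and list members with reads. Reads at matching places cannot be told apart where the sequences match, so windows of the copies and the frames are not independent. Replicate numbers did not pair the samples, with a correlation of deviations of 0.0699 over 559 features and 0.0455 over 216 windows. That replicates are biological is known only from the design text, and p-values measure the spread between these libraries.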

Additional observations from a re-analysis of the deposited data

How the results depend on the processing

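Control 1 gives 84 reads on the pair, and 2 libraries a group cannot pass a permutation test. With rRNA and tRNA reads left out of the totals, the log2 fold changes on the frames fell to 0.05 (RRT15) and 0.41 (YLR162W), against 1.85 and 1.89 with all named reads, and the groups' shares overlapped for both members. Those totals still hold the pair's own reads and are partly set by them. Counted as distinct fragments, the direction on the frames turned, with log2 fold changes of -0.09 for RRT15 and -0.22 for YLR162W and share differences of -0.0957 (RRT15), -0.231 (YLR162W) and -0.327 (both) percentage points. For both members a distinct fragment stood for more reads in Seb1-HTP libraries than in control libraries. For RRT15 the groups were close, at 13.9 reads per distinct fragment in Seb1-HTP 2 against 11.5 in control 2. The control libraries were also shallower, and this ratio is not given here for other features. RRT15 also turned over the 3 places, to -1.48 (log2) and -12.7 percentage points. That sum includes 25S fragments that ran past the upper end of the frame's reads. In distinct fragments the difference in same-shape 25S matches turned to -7.31 (RRT15), -7.20 (YLR162W) and -7.66 (both) percentage points, that of YLR162W reads on the frame to 5.39 percentage points, and that of substitutions per read over both members to -0.104. With 1 library left out, the RRT15 match difference was -1.06 to 6.15. The cause was not tested for any of these. Features called higher, 0 in the edgeR fit, numbered 1 with DESeq2, 7 (and 3 lower) when reads counted for every feature named, and 0 to 93 with 1 library left out. Windows called higher, 29 in the edgeR fit, numbered 44 with no filter, 4 with distinct fragments, 8 once rRNA and tRNA left the totals, 17 with the replicate block, and 5 to 91 with 1 library left out, and windows called lower, 6, then numbered 5 to 13. The replicate block gave 2.02 for RRT15 (adjusted p = 0.214) and 1.91 for YLR162W (adjusted p = 0.253, edgeR), changing no call of the members.

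Log2 fold changes of single features and windows that turned were those of RDN5-6 (-0.41 with DESeq2, -0.53 with distinct fragments, -1.48 once rRNA and tRNA left the totals, -1.21 with the replicate block, -3.83 to 1.13 with 1 library left out), RDN5-1 (-0.43 with those totals, -0.04 with the replicate block, -2.63 to 2.28 with 1 library left out) and PCL5 (-0.28 to 3.38 with 1 library left out). With distinct fragments, windows 489750, 451800, 451850, 460900 and 460950 turned to -0.67, -0.63, -0.95, -0.63 and -0.49. Window 490450 turned to -0.57 with DESeq2 and -1.17 with totals without rRNA and tRNA, under which 461550 was at -0.39. With 1 library left out, 490450 was at -0.12 to 4.33 and 490300 at -3.33 to 2.51. Another 14 values of single genes or windows passed the threshold under an alternative only. A further 158 values that answer a comparison and 187 others kept their direction and any call, or were counts of calls near the first count. Their sizes could still change, and they were not set against the spread between replicates.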
